A study of Mus musculus with 4 samples.

Results

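The contractile apparatus of smooth muscle was followed here through 38 genes out of the 32286 features counted in single cells of mouse popliteal vessels. The 38 were chosen by name from the gene symbols of the deposited tables, as known parts of the apparatus and genes tied to it. Earlier results of these data were known when the list was made, so counts of calls among its members are not independent of these data. They fall into actin and myosin with the light chains and their kinase (6 genes), thin filament and capping proteins (6), intermediate filament proteins (2), dense body and focal adhesion proteins (11), myosin phosphatase subunits with their inhibitor and the kinases Rock1 and Rock2 (5), transcriptional regulators (3) and other muscle genes (5). All 38 were found in the files and all passed the filter on low counts in each comparison of whole classes and of the kinds of muscle.

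A smooth muscle cell shortens when calcium and calmodulin switch on myosin light chain kinase, which phosphorylates the regulatory light chain so that myosin pulls on actin. Myosin phosphatase reverses this step and is itself held back by phosphorylation and by a small inhibitor protein, while dense bodies, focal adhesions and intermediate filaments carry the force through the cell and to the matrix. Serum response factor, with its partner myocardin, switches on many of these genes through CArG boxes in their regulatory DNA, and the same machinery drives the pumping of collecting lymphatics and the tone of veins and arteries.

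All cells came from adult WT1GFPCre x Ai9-tdT mice, in which the Wt1 locus drives Cre and a recombined Rosa26 reporter makes tdTomato. Every mouse was anaesthetised with K/X and received Evans blue in the footpad, and there was no untreated or reporter-free group. In the PLV group, 2 libraries held popliteal lymphatic vessels, each from a pool of 2 mice digested for 30 min with collagenase I, Dispase II, DNase and Liberase. A further library, called mixed here, pooled hashed popliteal lymphatic vessels and blood vessels of 2 mice digested for 60 min with collagenase I and Dispase II alone, and was used as 1 sample because its hashtags were not used to part the vessels. Vessel, digestion, run and mice therefore differ together between the PLV and the mixed libraries and cannot be told apart.

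After filtering, 1879 cells of PLV replicate 1, 511 of PLV replicate 2 and 993 of the mixed library remained, with 9391931, 3376312 and 7767095 unique molecular identifiers (UMIs, counted RNA molecules) and median depths of 3409, 4906 and 6171 UMIs per cell. No cell barcode was shared between any pair of libraries. Cells were clustered within each library without the 38 genes, and clusters were named from other marker genes, which left 9, 69 and 49 cells unnamed. Muscle-like cells numbered 515, 108 and 312 and pericyte-like cells 44, 26 and 59. Values below are counts per 1000000 UMIs (CPM) over all cells of a class in a library, always in the order PLV replicate 1, PLV replicate 2 and mixed, and differences are log2 values with their standard error (SE) from edgeR's quasi-likelihood test, called where the p-value after Benjamini-Hochberg adjustment over all genes tested was at most 0.05. A library is the replicate, so the tests between cell classes rest on 3 libraries.

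All 38 genes matched the GENCODE vM21 annotation on GRCm38 by their identifier, and all but the long non-coding RNA Carmn are protein coding there. Of the genes on which the contrasts below turn most, Sorbs2 spans chr8:45507788-45827906 on the plus strand, Synm chr7:67730160-67759742, Fhl2 chr1:43123074-43196984, Actg2 chr6:83512905-83536265 and Acta2 chr19:34241090-34255590, each on the minus strand, and Cnn1 chr9:22099216-22109630 and Des chr1:75360329-75368579 on the plus strand. An annotated gene overlaps 9 of the 38 on the same strand and 16 on the other, Sorbs2 among both, Synm, Des and Fhl2 among the latter. Reads from stretches shared with a gene on the same strand cannot be told apart, and neither can those from opposite strands where the counting did not use strand, which is not given in the sources used here.

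The promoters were read because the regulator of these genes is itself among them and its binding motif is known. RefSeq promoter windows on GRCm38.p6, from 250 bases before to 50 after each start, were at hand for 32 of the 38 genes with 40 starts, and not for Actg2, Myh11, Tagln, Rock1, Myocd and Carmn. The pattern of a perfect CArG box, though not every box that matches it, is its own reverse complement, so a search covers both strands. Such a box lay in 7 of the 40 starts (17.5%), those of 6 genes (Myl9, Myl6, Vcl, Srf, Fhl1 and Fhl2, the last with a box at both of its starts). In windows of the same length over all genes of the table, 535 of 32851 starts (1.63%) held one. The windows of 3 genes are shown, for a focal adhesion gene at overlapping levels in muscle-like and pericyte-like cells, for the gene that differed most between kinds of muscle after Sorbs2, and for the regulator's own gene. Each is the 250 bases upstream of the start, read 5′ to 3′ along the gene's strand, with the CArG boxes in capitals.
Vcl, chr14:20929148-20929397, plus strand: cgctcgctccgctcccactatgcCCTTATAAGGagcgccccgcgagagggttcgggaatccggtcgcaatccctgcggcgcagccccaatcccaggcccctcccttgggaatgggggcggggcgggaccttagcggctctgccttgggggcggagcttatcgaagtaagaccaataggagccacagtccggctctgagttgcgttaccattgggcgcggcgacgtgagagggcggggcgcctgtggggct
Fhl2, chr1:43163962-43164211, minus strand: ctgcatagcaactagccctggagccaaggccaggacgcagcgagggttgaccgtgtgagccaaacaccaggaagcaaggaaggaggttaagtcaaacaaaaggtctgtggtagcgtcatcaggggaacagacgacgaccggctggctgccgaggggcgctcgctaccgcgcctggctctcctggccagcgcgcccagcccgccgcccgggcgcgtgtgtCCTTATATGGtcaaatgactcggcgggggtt
Srf, chr17:46556163-46556412, minus strand: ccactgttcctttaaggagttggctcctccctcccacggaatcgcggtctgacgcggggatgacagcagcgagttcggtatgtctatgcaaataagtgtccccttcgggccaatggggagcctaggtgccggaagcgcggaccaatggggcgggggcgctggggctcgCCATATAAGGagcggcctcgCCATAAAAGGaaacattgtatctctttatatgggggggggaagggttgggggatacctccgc
The Vcl box begins 227 bases before the start and that of this Fhl2 start 31 bases before it. Srf carries a pair of boxes, the first of which begins 82 bases before the start. A match to the motif is a description of the letters only.

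Summed over the 38 genes, the apparatus took 7.62, 7.65 and 8.55% of all UMIs in muscle-like cells. Pericyte-like cells gave 1.94, 2.04 and 2.95%, so that every library had less in pericyte-like than in muscle-like cells. The share was 0.672, 0.478 and 0.571% in blood endothelial-like cells and 0.625, 0.417 and 0.394% in lymphatic endothelial-like cells. Schwann-like cells gave 0.478, 0.387 and 0.453% and fibroblast-like cells 0.295, 0.241 and 0.236%. Immune-like cells gave 0.284, 0.235 and 0.26%, with Myl6, a gene that many cell types use, at 942, 729.9 and 831 CPM there, so this share is no measure of background. The pericyte-like share lay between those of the muscle-like and of the other classes in every library.

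**Figure D1:**
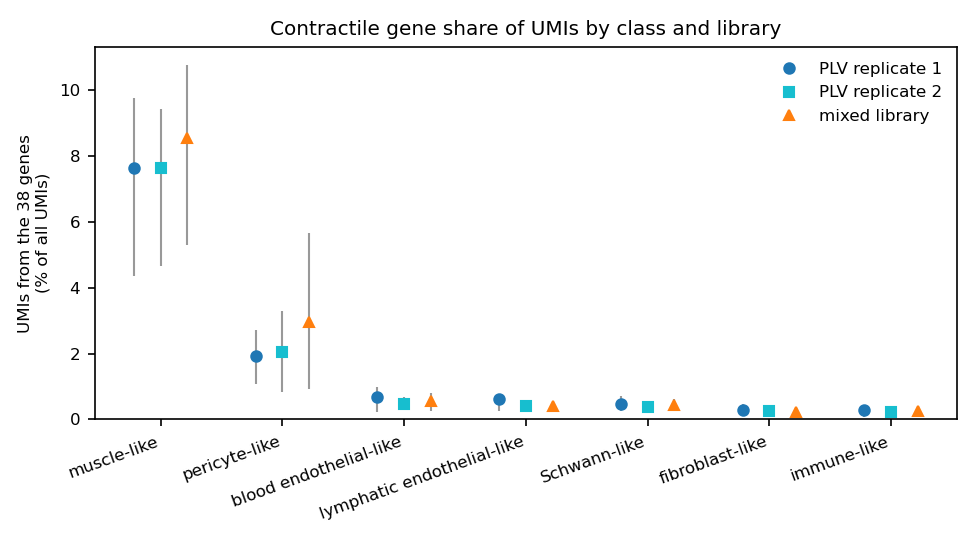
Share of all UMIs that fell on the 38 genes, in percent, for each cell class and each of the 3 libraries; points are the summed class in 1 library and gray lines run from the 10th to the 90th percentile of its cells. Muscle-like cells lay at 7.62 to 8.55%, pericyte-like cells at 1.94 to 2.95%, and no other class was above 0.672%.

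Against fibroblast-like cells, 37 of the 38 members were higher in muscle-like cells and none was lower. The 3 libraries of the groups did not overlap for any of the 37, a count for which no share over all genes is given here. Over all 10491 genes tested, 17.4% were called higher in muscle-like cells. The median difference of the members was 5.20 on the log2 scale, beside -0.02 for all genes. The exception was Fhl1, a LIM-domain protein, at 203, 224 and 248 CPM in muscle-like and 271, 186 and 124 CPM in fibroblast-like cells (0.09, SE 0.24, edgeR adjusted p = 0.82). With library totals alone in place of TMM scaling the median of all genes moved by 0.21, and the higher share of all calls was 58.4% in place of 44.8%; 37 members were called under both.

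Among the genes of actin and myosin, Acta2, smooth muscle alpha-actin, stood at 14058, 13825 and 15276 CPM in muscle-like cells. In fibroblast-like cells it was at 6.53, 2.22 and 43.3 CPM, a difference of 9.35 (SE 1.23, edgeR adjusted p = 4.3e-06). The immune-like level was 29.7, 9.18 and 39.3 CPM, so the fibroblast-like level was below that of a class that should lack the gene in both PLV libraries and close to it in the mixed library. Cell by cell, 99.4, 98.1 and 99.4% of muscle-like cells held at least 1 Acta2 UMI at median depths of 4213, 6752.5 and 7503.5 UMIs. The corresponding shares were 95.5, 76.9 and 81.4% of pericyte-like cells (median depths 2837.5, 4690.5 and 6223), 3.11, 1.15 and 7.58% of fibroblast-like cells, and 3.72, 6.25 and 16.1% of immune-like cells (2352, 5569 and 5322). The fibroblast-like shares were below the immune-like ones in each library. The 3 cells with most held 78.3% of the 92 Acta2 UMIs of fibroblast-like cells in the mixed library. In immune-like cells of PLV replicate 1 the 3 cells with most held 76.5% of 17 UMIs. Whether the fibroblast-like values are background was not tested.

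Myh11, the smooth muscle myosin heavy chain, was at 5848, 6992 and 7394.5 CPM in muscle-like and at 5.44, 0 and 34.8 CPM in fibroblast-like cells (8.58, SE 1.15, edgeR adjusted p = 5.7e-06). Actg2, the gamma smooth muscle actin first known from gut, was at 448, 429 and 1349 CPM in muscle-like cells and had 2 UMIs in all fibroblast-like cells, both in the mixed library, for a ratio of 1850 with a counting interval from 512 to 15280. Mylk, the light chain kinase that starts contraction, was at 4022, 4348 and 4794 against 12.5, 26.6 and 62.5 CPM (6.72, SE 0.48, edgeR adjusted p = 2.1e-09). The regulatory light chain Myl9, its substrate, was 6.74 (SE 0.86) higher, from 15.5 to 79.9 CPM in fibroblast-like cells to 4681 to 5489.9 in muscle-like cells. Myl6, the essential light chain that non-muscle myosin uses too, was called with a smaller difference of 2.94 (SE 0.19) and stayed at 852, 521 and 818 CPM in fibroblast-like cells.

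The thin filament proteins followed the same order. Tagln (transgelin, an actin-bundling protein) was at 7236, 7402 and 10242 CPM against 4.9, 2.22 and 51.3 (8.41, SE 1.04, edgeR adjusted p = 2.1e-06). Calponin, Cnn1, which binds actin and slows myosin, was at 557, 663 and 1627 against 1.09, 0 and 1.88 CPM (9.45, SE 0.88). Leiomodin, Lmod1, which nucleates actin filaments, was at 656, 779 and 916 against 0.544, 0 and 5.17 CPM (8.08, SE 0.74). Of the tropomyosins, which line the filament, Tpm1 was at 4168, 4562 and 6293 against 109, 86.4 and 98.3 CPM (5.46, SE 0.36). Tpm2 was at 5237, 4912 and 7769 against 9.25, 24.4 and 42.8 CPM (7.72, SE 0.90). Smoothelin, Smtn, had the smallest difference of these 6 genes, with 545, 490.2 and 230.3 CPM in muscle-like and 47.9, 55.4 and 40.4 CPM in fibroblast-like cells (2.80, SE 0.24).

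Both intermediate filament genes were higher in muscle-like than in fibroblast-like cells. Des (desmin) was at 381, 355 and 548 against 4.9, 8.86 and 5.64 CPM (6.02, SE 0.48). Synemin, Synm, which co-assembles with desmin, was at 395, 366 and 99.6 against 12, 15.5 and 7.99 CPM (4.28, SE 0.51), with the mixed library lowest on the muscle side.

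All 11 genes of dense bodies and focal adhesions were higher, by 1.15 to 7.38. Synpo2, an actin-bundling dense body protein, was at 906, 955 and 944 against 9.8, 4.43 and 1.88 CPM (7.38, SE 0.59). Sorbs2, an adaptor of the adhesion complex, was at 1309.8, 1514 and 282 against 2.72, 0 and 8.46 CPM (7.25, SE 0.69), with the mixed library far below the PLV libraries on the muscle side. The LIM protein Csrp1 was at 2429, 2642 and 2147 against 50.6, 79.8 and 59.3 CPM (5.01, SE 0.30). Alpha-actinin 1, Actn1, which crosslinks actin, was at 830.2, 939 and 448 against 10.9, 22.2 and 29.6 CPM (4.82, SE 0.35). Filamin A, Flna, which also crosslinks actin and binds integrins, was at 3537, 3488 and 2829 against 192, 162 and 100.2 CPM (4.27, SE 0.28).

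The PDZ-LIM proteins sit at dense bodies and actin bundles. Pdlim3 was at 347, 390.4 and 301 against 1.09, 0 and 15.5 CPM (5.40, SE 0.57), and its difference was larger without the mixed library, where the fibroblast-like cells of the others held 2 and 0 UMIs. Pdlim5 was at 269, 340.5 and 308 against 74, 77.6 and 35.7 CPM (2.18, SE 0.24). Pdlim7 was at 290.5, 255 and 208 against 53.9, 48.8 and 29.6 CPM (2.34, SE 0.20). Vinculin and talin join integrins to actin in many cell types, and their differences were smaller than that of Pdlim3. Vcl was at 410.5, 424 and 378 against 63.1, 51 and 28.2 CPM (2.93, SE 0.20). Tln1 was at 466, 582 and 602 against 133, 146 and 135 CPM (1.76, SE 0.18). Zyxin, Zyx, at 322, 278 and 214 CPM in muscle-like cells, was called at 1.15 (SE 0.26, edgeR adjusted p = 0.0013), yet fibroblast-like cells ranged from 213 CPM in PLV replicate 1 to 37.6 in the mixed library, and without the mixed library the difference was 0.73. With a minimum of 1000 UMIs per cell it was not called.

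In the switch that ends contraction, the inhibitor Ppp1r14a (CPI-17) was at 1267, 994 and 1573 CPM in muscle-like and 4.9, 8.86 and 19.3 CPM in fibroblast-like cells (6.59, SE 0.53). Of the targeting subunits of myosin phosphatase, Ppp1r12a was at 1293, 1583 and 1443 against 78.4, 104 and 49.4 CPM (4.06, SE 0.20). Ppp1r12b was at 811, 826 and 489.8 against 64.2, 37.7 and 30.6 CPM (3.80, SE 0.32). The kinase genes showed smaller differences. Rock1 was at 620.1, 746 and 663 against 121, 182 and 115 CPM (2.09, SE 0.18). Rock2 was at 576, 627 and 602 against 381, 324 and 186 CPM (0.85, SE 0.19, edgeR adjusted p = 0.001).

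Among the regulators, Myocd (myocardin) was at 182, 198 and 196 CPM in muscle-like cells and had 2 UMIs in all fibroblast-like cells, for a ratio of 421 with a counting interval from 116 to 3480. Carmn, a long non-coding RNA that binds myocardin, was 5.60 (SE 0.42) higher, at 109, 204 and 247 against 3.27, 4.43 and 2.35 CPM. Srf, the DNA-binding partner, was found at 31.6, 32 and 16.8 CPM in muscle-like and 13.1, 8.86 and 1.88 CPM in fibroblast-like cells (1.67, SE 0.37, edgeR adjusted p = 0.0012). It was the only member with under 30 UMIs in muscle-like cells of a library, namely PLV replicate 2.

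Of the other muscle genes, Sncg (gamma-synuclein) was at 616, 517 and 396 CPM in muscle-like cells and had 3 fibroblast-like UMIs, for a ratio of 745 with a counting interval from 255 to 3616. Pcp4l1, a small protein related to a calmodulin-binding one, was at 989, 1082 and 1131 against 0, 2.22 and 3.76 CPM (8.77, SE 0.57). Mustn1, a small nuclear protein of muscle and skeleton, was at 2291, 1832 and 1665 against 108, 88.6 and 40.9 CPM (4.49, SE 0.33). Fhl2, a LIM-domain cofactor of serum response factor, was at 51.4, 49.9 and 134 against 1.63, 6.65 and 10.3 CPM (3.50, SE 0.49).

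**Figure D2:**
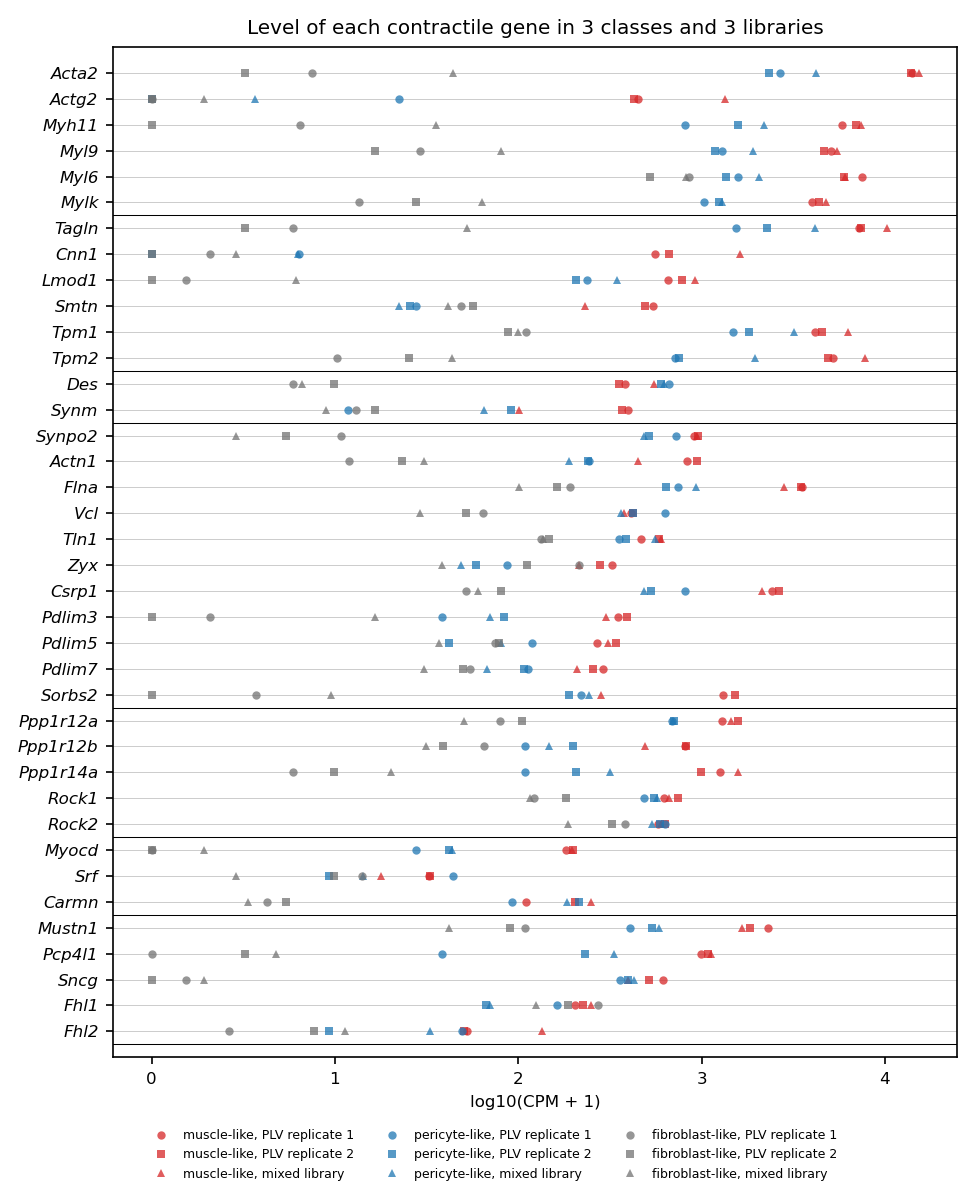
Levels of the 38 genes, grouped by role, in muscle-like, pericyte-like and fibroblast-like cells of the 3 libraries, as log10 of CPM plus 1; each point is 1 class in 1 library. Muscle-like points lie to the right of fibroblast-like points for all genes but Fhl1, and pericyte-like points lie beyond the muscle-like ones only for Des in every library.

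Further genes of contraction, adhesion and calcium handling were followed beside the 38, in a list of 44 of which 42 were in the files and 41 were tested. Against fibroblast-like cells 26 of them were higher in muscle-like cells, 6 were lower and 9 were not called, with a median of 1.22; of all genes tested 17.4% were higher and 21.5% lower. Nexilin, Nexn, an actin-binding protein of dense bodies and Z-discs, was at 457, 584 and 695 against 1.63, 4.43 and 9.41 CPM (6.41, SE 0.42, edgeR adjusted p = 7.8e-10). The integrin subunit gene Itga8 (6.05, SE 0.60) and Jph2, which ties the plasma membrane to calcium stores (6.00, SE 0.54), came next. The lower genes included the light chains of non-muscle myosin, Myl12b (-1.10, SE 0.22) and Myl12a (-0.56, SE 0.21, edgeR adjusted p = 0.043), and paxillin, Pxn (-1.76, SE 0.28). Against pericyte-like cells 19 were higher, 3 were lower and 19 were not called, beside 6.72 and 5.23% of all genes higher and lower.

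Most members were also higher against the other non-muscle classes. All 38 members were higher in muscle-like than in blood endothelial-like cells, where 20.4% of genes tested were called higher, with a median of 3.55. Rock2 had the smallest difference there (0.98, SE 0.18), and Synm, at 1.25 (SE 0.40, edgeR adjusted p = 0.017), overlapped between groups and lost its call without PLV replicate 1 (0.88) or PLV replicate 2 (1.41); Srf lost its call without PLV replicate 1 (1.25). Against lymphatic endothelial-like cells 36 were higher (21.7% of genes tested; median 4.36), all but Zyx (-0.23, SE 0.25, edgeR adjusted p = 0.5) and Rock2 (0.30, SE 0.18, edgeR adjusted p = 0.2). In lymphatic endothelial-like cells Zyx stood at 364, 298 and 313 CPM. Acta2 was at 447.5 CPM in lymphatic endothelial-like cells of PLV replicate 1 but at 4.28 and 8.45 CPM in the other libraries, and 3 cells held 59.8% of its UMIs there. Without that library the differences of Actg2, Myh11, Tagln, Cnn1, Myl9, Synpo2, Des, Carmn and Fhl2 were larger; Myh11 (7.05 with all libraries) stood at 205 CPM there and at 2.14 and 2.41 CPM, 2 UMIs each, in the other libraries.

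Against Schwann-like cells 36 members were higher (19.0% of genes tested), with a median of 5.92, or 5.53 when the 7 genes without a Schwann-like UMI were set at their bound. With a minimum of 1000 UMIs per cell 33 were higher and the median was 3.12. Those 7 were at least 341-fold (Ppp1r14a), 197-fold (Lmod1), 113-fold (Des), 83.4-fold (Pdlim3), 47.7-fold (Myocd), 45.6-fold (Carmn) and 21.8-fold (Fhl2) higher in muscle-like cells, taking 3 counts over the group as the floor. The exceptions were Smtn, with 617, 416 and 271 CPM in Schwann-like cells (0.04, SE 0.22, edgeR adjusted p = 0.94), and Sncg, with 748, 691 and 928 CPM (-0.49, SE 0.23, edgeR adjusted p = 0.11). With library totals alone, which moved the median of all genes by -0.11, Sncg was called lower in muscle-like cells (-0.63, edgeR adjusted p = 0.037). Gamma-synuclein is also a protein of peripheral neurons. The Synm call against Schwann-like cells was lost without PLV replicate 1 (1.53) or PLV replicate 2 (1.35). In the mixed library Synm was lower in muscle-like cells, at 99.6 against 139.6 CPM.

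Pericytes wrap capillaries and share part of the muscle programme. Against pericyte-like cells 24 members were higher in muscle-like cells, none was lower and 14 were not called; 6.72% of all genes tested were called higher, and the median difference was 2.08 beside 0.06 for all genes. The libraries of the groups did not overlap for 32 of the 38, a count for which no share over all genes is given here. Which members passed depended on the fit: between 16 and 30 were called over the alternatives, and a fit of these 2 classes alone called 30. Library totals alone moved the median of all genes by -0.20 and the higher share of all calls from 56.2 to 39.0%. The pericyte-like cells numbered only 44, 26 and 59.

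The largest differences from pericyte-like cells were those of 3 thin filament and actin genes. Cnn1 was at 557, 663 and 1627 CPM in muscle-like cells but had 3 UMIs in all pericyte-like cells, for a ratio of 237 with a counting interval from 81 to 1149. Actg2 was at 448, 429 and 1349 against 21.5, 0 and 2.66 CPM (7.06, SE 0.90, edgeR adjusted p = 2.8e-05). Smtn was at 545, 490.2 and 230.3 against 26.8, 24.7 and 21.3 CPM (4.18, SE 0.32, edgeR adjusted p = 1.1e-07).

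Genes of calcium sensitivity and regulation were also called. Ppp1r14a was 2.81 (SE 0.44) higher, at 107, 206 and 314 CPM in pericyte-like cells, and Ppp1r12b was 2.40 (SE 0.32) higher. Myocd stood at 182, 198 and 196 against 26.8, 41.1 and 42.5 CPM (2.57, SE 0.39, edgeR adjusted p = 0.00024), whereas its partners Srf (0.44, SE 0.46) and Carmn (0.42, SE 0.31) were not called. The light chain gene Myl6 was 2.18 (SE 0.19) higher and Mylk 2.10 (SE 0.38) higher. Among dense body and adhesion genes, 8 of 11 were higher, from 1.67 for Pdlim7 to 2.81 for Pdlim3.

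The genes most used as muscle markers did not pass in this fit. Acta2 was at 2671, 2345 and 4200.3 CPM in pericyte-like cells, below each muscle-like value of 13825 to 15276 CPM, and the difference of 2.50 (SE 0.87) had an edgeR adjusted p of 0.072. Myh11 was at 815, 1588 and 2185 CPM in pericyte-like cells (2.33, SE 0.84, edgeR adjusted p = 0.082). Tagln, at 1545, 2271 and 4179 CPM there (1.90, SE 0.76, edgeR adjusted p = 0.12), and Myl9 (2.06, SE 0.68, edgeR adjusted p = 0.055) were not called either. None of these 4 genes overlapped between the groups, and all 4 were called in the fit of the 2 classes alone, where the differences were 2.39, 2.35, 1.86 and 1.94.

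Desmin was the member that went the other way in every library. Des was at 659.7, 601 and 622 CPM in pericyte-like cells and at 381, 355 and 548 CPM in muscle-like cells, without overlap, but its difference of -0.34 (SE 0.34) was not called (edgeR adjusted p = 0.62). Vcl, at 633, 419.6 and 362 against 410.5, 424 and 378 CPM, overlapped (0.02, SE 0.18). Rock2, Sncg, Synpo2, Tln1, Rock1 and Fhl2 made up the rest of the genes not called, with differences of 0.26 to 1.62.

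Single libraries decided some of these calls. Without PLV replicate 2, Lmod1 (1.65), Mylk (2.16), Tpm1 (1.42), Tpm2 (2.51), Synm (2.44), Sorbs2 (1.87) and Fhl1 (1.39) were no longer called. Without PLV replicate 1, Synm (1.47) and Sorbs2 (1.94) were not called but Acta2, Myh11, Tagln, Myl9, Synpo2 and Fhl2 were, 28 members in all. Without the mixed library Acta2, Myh11, Tagln, Myl9, Tln1 and Sncg were called in addition, 30 in all. The 13 marker genes that named muscle summed to 1464, 1613 and 1366 CPM in pericyte-like cells, beside 2671, 2399 and 1420 CPM in muscle-like cells. Of these 13, 9, 9 and 12 were detected in pericyte-like cells. Kcnmb1 was at 0 there in all libraries, and Map3k7cl, Pln and Kcna5 were at 0 in both PLV libraries. Others of the 13 were among the leading genes of the pericyte-like cluster, Ano1 in PLV replicate 2 and Olfr558 in the mixed library. The 10 pericyte genes summed to 11746, 9569 and 5710 CPM in pericyte-like and 1617, 1119 and 871 CPM in muscle-like cells. Pericyte-like cells with more than 5000 CPM of Acta2 numbered 5 of 44, 2 of 26 and 18 of 59. The part of these markers in the differences was not tested.

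**Figure D3:**
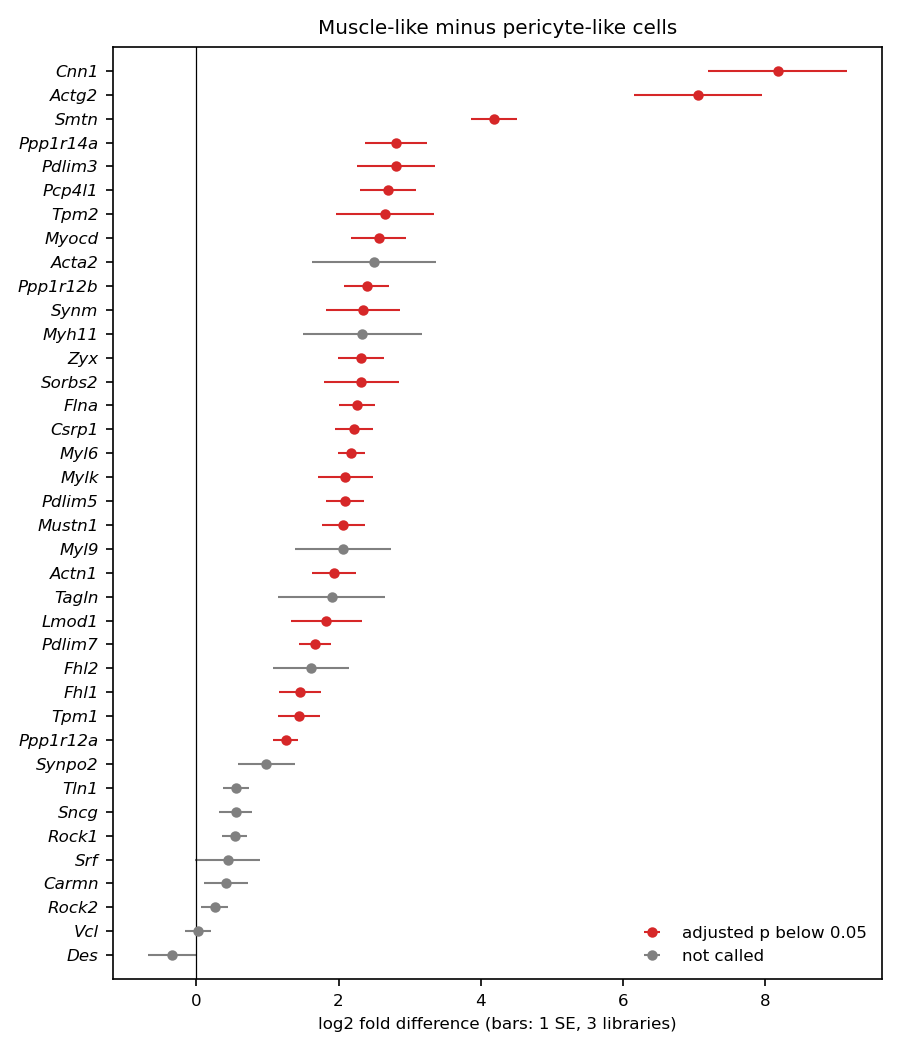
Log2 difference of muscle-like minus pericyte-like cells for each of the 38 genes, with bars of 1 SE from the edgeR fit over 3 libraries; the 24 called genes are in red. Cnn1 (8.18) and Actg2 (7.06) stand far to the right, and Des (-0.34) is the only gene left of 0.

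Pericyte-like cells nonetheless carried much of the apparatus when set against fibroblast-like cells, a comparison that shares both classes with the ones above. In it 29 members were higher, 3 were lower and 6 were not called, where 23.7% of all genes tested were called (9.64% higher and 14.0% lower). The median of the members was 2.84, beside -0.08 for all genes. With library totals alone the median of all genes moved by 0.42 and the higher share of all calls rose from 40.7 to 69.3%.

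Sncg showed the largest difference, with 359, 395 and 428 CPM against 3 fibroblast-like UMIs, a ratio of 594 with a counting interval from 201 to 2897. Acta2 was 6.85 (SE 1.13, edgeR adjusted p = 0.00013) higher in pericyte-like cells, Tagln 6.51 (SE 0.98) and Myh11 6.24 (SE 1.07). Des was 6.37 (SE 0.49), Synpo2 6.40 (SE 0.59), Carmn 5.18 (SE 0.48) and Vcl 2.91 (SE 0.21) higher. The genes with the largest differences between muscle-like and pericyte-like cells, Cnn1 and Actg2, were not called here. Actg2 had 5 pericyte-like and 2 fibroblast-like UMIs (ratio 16.1, counting interval 2.64 to 169, edgeR adjusted p = 0.3), and Cnn1 had 3 and 6 (ratio 0.31, counting interval 0.0662 to 1.92, edgeR adjusted p = 0.75).

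Lower in pericyte-like than in fibroblast-like cells were Fhl1, at 161, 65.8 and 69.1 against 271, 186 and 124 CPM (-1.37, SE 0.30, edgeR adjusted p = 0.0019), Smtn (-1.39, SE 0.37, edgeR adjusted p = 0.0088) and Zyx (-1.17, SE 0.34, edgeR adjusted p = 0.015). Zyx was at 85.8, 57.6 and 47.9 against 213, 110.8 and 37.6 CPM, so the mixed library went the other way and the groups overlapped. The Smtn call was lost without PLV replicate 2 or without the mixed library (-1.35 and -1.32), and the Zyx call without either PLV library (-0.70 and -1.10). Of the calls in the higher direction, 5 were lost without at least 1 library. Without PLV replicate 2 these were Myl6 (0.67, beside 0.76 with all libraries), Synm (1.83, beside 1.94), Pdlim3 (2.21, beside 2.59), Ppp1r12b (1.17, beside 1.40) and Rock2 (0.63, beside 0.59). The Pdlim3 call was also lost without PLV replicate 1 (2.21), and those of Synm (1.33), Ppp1r12b (1.09) and Rock2 (0.40) without the mixed library. The 8 fibroblast markers summed to 4677, 2148 and 3161 CPM in pericyte-like cells, and their part in these differences was not tested.

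Muscle-like cells split into kinds, which were called by a leading gene that is not a member. Clusters of the Ano1 kind, led by Hmcn2 and Enpp2 in every library and in the PLV libraries also by the calcium-activated chloride channel gene Ano1, held 155, 54 and 197 cells. Those of the Pln kind, led by phospholamban (Pln) and Myom1 in every library, held 360, 54 and 41 cells. A P2rx1 kind, led by Ccn3, the purinergic receptor gene P2rx1 and Col12a1, was found only in the mixed library, with 74 cells. No kind was assigned to a vessel.

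The whole apparatus took similar shares of UMIs in both of the larger kinds, 7.75, 6.85 and 7.67% in the Ano1 kind and 7.57, 8.20 and 8.67% in the Pln kind. Within it, 10 members were higher in the Ano1 kind, 12 were lower and 16 were not called, in a fit with the library as a block. The adjusted p-values of this fit rest on a spread moderated over all genes, and not on the 3 libraries of each gene alone. Over the 7155 genes tested 33.1% were called (16.0% higher and 17.1% lower), and the members' median was -0.09. Without the block 10 members were called, 5 in each direction. Library totals alone moved the median of all genes by 0.17 and the higher share of all calls from 48.2 to 61.8%, and that of member calls from 45.5 to 53.8%, and the members' median was then 0.08.

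Sorbs2 and Fhl2 differed most between the kinds, in opposite directions. Sorbs2 was at 15, 3.13 and 3.04 CPM in the Ano1 kind and at 1889, 2559.9 and 2225 CPM in the Pln kind, without overlap (-8.41, SE 0.26, edgeR adjusted p = 2.1e-59). At least 1 Sorbs2 UMI was found in 3.23, 1.85 and 1.02% of Ano1-kind cells and in 88.6, 96.3 and 100% of Pln-kind cells. Immune-like cells gave 1.6, 3.13 and 0%, below the Ano1-kind share in PLV replicate 1 and the mixed library and above it in PLV replicate 2. Whether the Ano1-kind shares are background was not tested. Median depths were 4090, 6135 and 6401 UMIs in the Ano1 kind, 4286, 8389.5 and 6565 in the Pln kind and 2352, 5569 and 5322 in immune-like cells. Thinned to 1500 UMIs per cell, the Sorbs2 shares were 2.19, 0 and 0% in the Ano1 kind and 87.6, 90.6 and 97.6% in the Pln kind. Synm, at 84.4, 87.6 and 42.6 against 534, 559 and 449 CPM, was also lower in the Ano1 kind (-3.07, SE 0.18, edgeR adjusted p = 4.8e-33).

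Fhl2 made the opposite contrast, at 166, 119 and 146 CPM in the Ano1 kind and 0, 2.17 and 0 CPM in the Pln kind, where 1 UMI was found in all libraries. The ratio was 357, with a counting interval from 63.6 to 14130. An Fhl2 UMI was seen in 46.5, 44.4 and 57.9% of Ano1-kind cells, in 0, 1.85 and 0% of Pln-kind cells and in 0.532, 3.13 and 0% of immune-like cells. The related Fhl1 was at 479, 397 and 236 against 78.6, 104 and 77.1 CPM (2.03, SE 0.18, edgeR adjusted p = 1.6e-19), so both four-and-a-half-LIM genes were higher in the Ano1 kind.

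Actin isoforms parted in this comparison. Actg2 was at 1202, 907 and 1173 CPM in the Ano1 kind and at 109.7, 97.5 and 235 CPM in the Pln kind (2.87, SE 0.18, edgeR adjusted p = 3.2e-31). Acta2, at 14457, 11998 and 12784 against 13880.0, 15089 and 14462 CPM, overlapped and was not called (-0.31, SE 0.15, edgeR adjusted p = 0.12), although it was called at a minimum of 1000 UMIs per cell. Myh11 was not called either (-0.21, SE 0.15), with 6408, 6703 and 6993 against 5598, 7192 and 8209 CPM.

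Among thin filament proteins Cnn1 was higher in the Ano1 kind, at 1149, 1120.3 and 1379.5 against 292, 347 and 483 CPM (1.58, SE 0.16, edgeR adjusted p = 7.2e-17). Tagln (-0.73), Tpm2 (-0.72), Smtn (-0.66) and Lmod1 (-0.63), each with an SE of 0.15, were lower. Carmn was the regulator that differed, at 179.7, 372 and 315 against 76.8, 86.6 and 80.4 CPM (1.53, SE 0.18, edgeR adjusted p = 4.2e-13), while Myocd (0.29, SE 0.16) and Srf (0.01, SE 0.34) were not called.

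The remaining called genes differed by less than 1 log2 unit. In the Ano1 kind Synpo2 (0.65), Csrp1 (0.54), Pdlim3 (0.54), Mylk (0.49) and Rock2 (0.48) were higher. Sncg (-0.99), Actn1 (-0.90), Myl6 (-0.85), Rock1 (-0.64), Pcp4l1 (-0.62) and Mustn1 (-0.58) were lower. Their SEs were 0.15 to 0.16. The calls of Mylk, Csrp1, Pdlim3, Rock2 and Mustn1 were lost without PLV replicate 1, when 17 members were called. Their differences were then 0.51, 0.52, 0.54, 0.46 and -0.58, with SEs of 0.23 to 0.24. The phosphatase genes Ppp1r12a (0.00), Ppp1r12b (-0.23) and Ppp1r14a (0.26) were not called.

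Markers of other cells were higher in the Ano1 kind, those of fibroblasts, endothelium and Schwann cells in every library. The 8 fibroblast markers summed to 3299, 2782 and 5162 CPM in the Ano1 kind, with Pdgfra at 0 in both PLV libraries and Pi16 at 0 in PLV replicate 2 and the mixed library. In the Pln kind they summed to 645, 455 and 1250 CPM, with 8, 4 and 8 of the 8 detected and Pdgfra, Lum, Dpt and Pi16 at 0 in PLV replicate 2. The 10 pericyte markers summed to 1450, 1086 and 1012 CPM in the Ano1 kind and 1692, 1141 and 747 CPM in the Pln kind, which were not higher in the Ano1 kind of the PLV libraries. The 8 blood endothelial markers summed to 227, 103 and 67.7 against 54.2, 13.0 and 13.4 CPM, with Emcn and Cd300lg at 0 in the mixed library on both sides. The 7 lymphatic endothelial markers summed to 50.4, 18.8 and 16.7 against 4.88, 2.17 and 0 CPM, with Ccl21a at 0 throughout. The 8 Schwann markers summed to 65.4, 119 and 40.3 against 32.3, 13.0 and 10.1 CPM, with Sox10 at 0 throughout. The part of these markers in the differences between kinds was not tested.

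**Figure D4:**
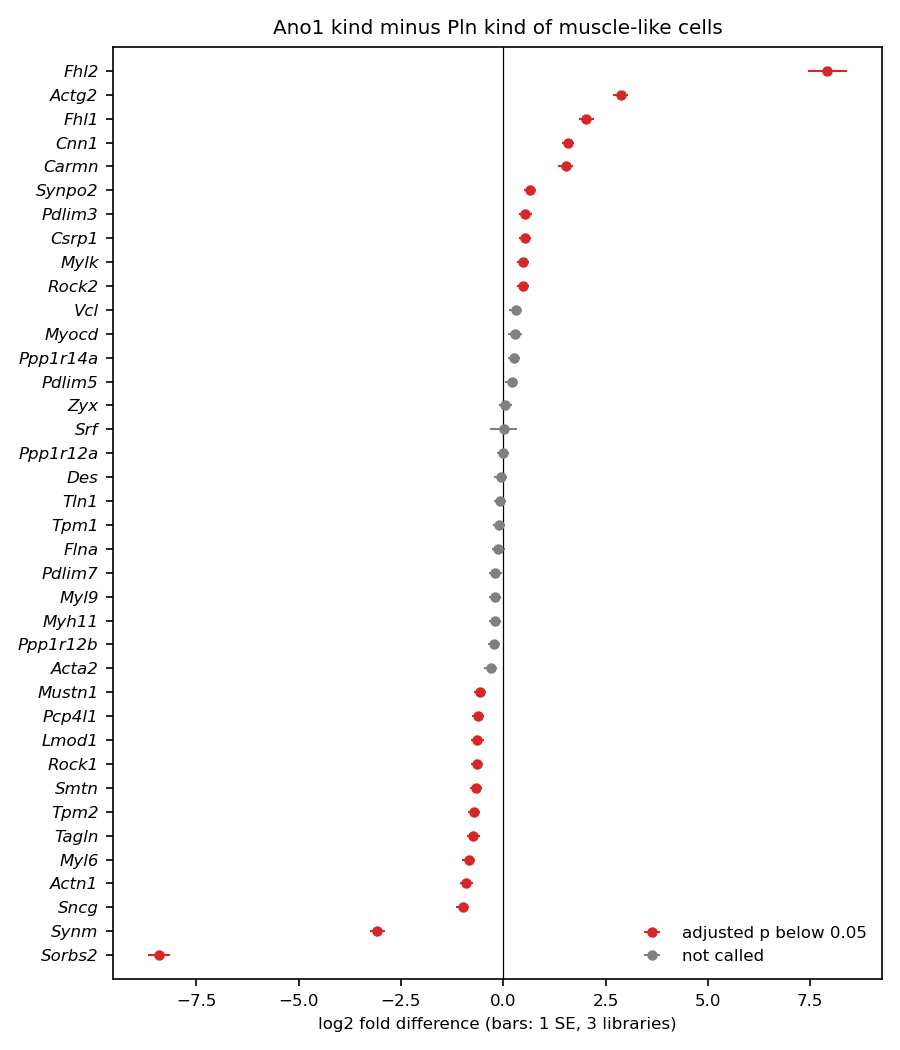
Log2 difference of the Ano1 kind minus the Pln kind for each of the 38 genes, with bars of 1 SE from the edgeR fit with library as a block; called genes are in red. Fhl2 (7.92) and Sorbs2 (-8.41) stand at the ends, while Acta2 (-0.31) and Myh11 (-0.21) lie close to 0.

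The P2rx1 kind existed in 1 library, so its values have counting intervals and no test. The apparatus took 9.92% of its UMIs, beside 7.67 and 8.67% in the Ano1 and Pln kinds of the same library. For 10 members its 95% counting interval lay above those of both other kinds, for 2 below both, and for 26 neither. On the log scale its level was nearer the Ano1 kind for 24 members and nearer the Pln kind for 14. No counts over all genes are given beside these, so they cannot be read as particular to the members. In the P2rx1, Ano1 and Pln kinds of this library the 8 fibroblast markers summed to 5556, 5162 and 1250 CPM. The 13 muscle markers summed to 1081, 1341.5 and 2707 CPM, and the 10 pericyte markers to 690, 1012 and 747 CPM. Median depths were 10117, 6401 and 6565 UMIs. The part of markers and depth in these levels was not tested.

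Among these 10 genes Des had the largest ratio over the Ano1 kind, at 1026 CPM (958 to 1098) in the P2rx1 kind, 319 in the Ano1 kind and 235 in the Pln kind. Acta2 was at 19534 CPM (19234 to 19837), above 12784 and 14462, and Tagln at 14011 CPM (13757 to 14268), above 7559.9 and 11627. Actg2, at 2031 CPM (1935 to 2130.1), and Cnn1, at 2435 CPM (2329.5 to 2543.5), were also above both, and so were Tpm1, Pdlim5, Ppp1r14a, Sncg and Fhl1. Ppp1r12a (1090.3 CPM) and Pcp4l1 (973 CPM) were below both. Sorbs2 was low, as in the Ano1 kind, at 24.2 CPM from 20 UMIs, of which 3 cells held 95%, and Synm was at 64.1 CPM beside 42.6 and 449.

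Compared as whole muscle-like classes, the 2 PLV libraries and the mixed library differed in 8 members, 3 higher in PLV and 5 lower, with 30 not called. Over the 10887 genes tested 16.9% were called (8.12% higher and 8.74% lower), and the members' median was -0.26. The mixed group is 1 sample, whose spread is assumed to be that of the PLV pair, so these adjusted p-values rest on the spread of 1 pair of libraries; edgeR called 1836 genes and DESeq2 205. Library totals alone moved the median of all genes by 0.24, with the higher share of all calls at 75.2% in place of 48.2% and that of member calls at 55.6% in place of 37.5%, and the members' median was then -0.02.

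Sorbs2 was higher in PLV, at 1309.8 and 1514 CPM against 282 (2.09, SE 0.32, edgeR adjusted p = 7.1e-09). Synm stood at 395 and 366 against 99.6 CPM (1.70, SE 0.28, edgeR adjusted p = 6.4e-08), and Smtn at 545 and 490.2 against 230.3 CPM (0.93, SE 0.28, edgeR adjusted p = 0.0076). Lower in PLV were Actg2, at 448 and 429 against 1349 CPM (-1.86, SE 0.27, edgeR adjusted p = 8.8e-10), and Cnn1, at 557 and 663 against 1627 CPM (-1.65, SE 0.28, edgeR adjusted p = 1.8e-07). Fhl2 was at 51.4 and 49.9 against 134 CPM (-1.63, SE 0.25), Carmn at 109 and 204 against 247 CPM (-0.94, SE 0.24) and Des at 381 and 355 against 548 CPM (-0.81, SE 0.26, edgeR adjusted p = 0.016). Left with PLV replicate 2 alone the Carmn ratio was -0.49, and with PLV replicate 1 alone it was -1.43, both without a test. Des was no longer called with library totals alone (-0.57). DESeq2 called 6 members, 2 higher and 4 lower: it did not call Smtn, Carmn and Des, and it called Tpm2 (-0.85).

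The kinds of muscle were unevenly held by these libraries: the Pln kind made up 69.9, 50 and 13.1% of muscle-like cells, the Ano1 kind 30.1, 50 and 63.1%, and the P2rx1 kind 0, 0 and 23.7%. Over all muscle-like cells the 8 fibroblast markers summed to 1466, 1407 and 4817 CPM. The 13 muscle markers summed to 2671, 2399 and 1420 CPM, and the 10 pericyte markers to 1617, 1119 and 871 CPM. The part of these markers in the differences between PLV and mixed was not tested. Within 1 kind, in comparisons added after the data were seen, 5.49% of genes tested were called among Ano1-kind cells and 3.09% among Pln-kind cells. There none of the 8 members was called except Actg2 among Pln-kind cells (-1.41, edgeR adjusted p = 0.00014); Fhl2 was too low there to be tested. Among Ano1-kind cells Actg2 differed by -0.43 (edgeR adjusted p = 0.41), Fhl2 by -0.28, Cnn1 by -0.56 and Smtn by 0.84 (edgeR adjusted p = 0.053). Sorbs2 differed by 1.48 among Ano1-kind cells (edgeR adjusted p = 0.56) and by -0.24 among Pln-kind cells, where the whole-class difference had been 2.09. Synm differed by 0.72 (edgeR adjusted p = 0.2) and by 0.04, where it had been 1.70. Tpm2, not called over the whole class, was lower in PLV among Ano1-kind cells (-1.002, edgeR adjusted p = 0.031).

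**Figure D5:**
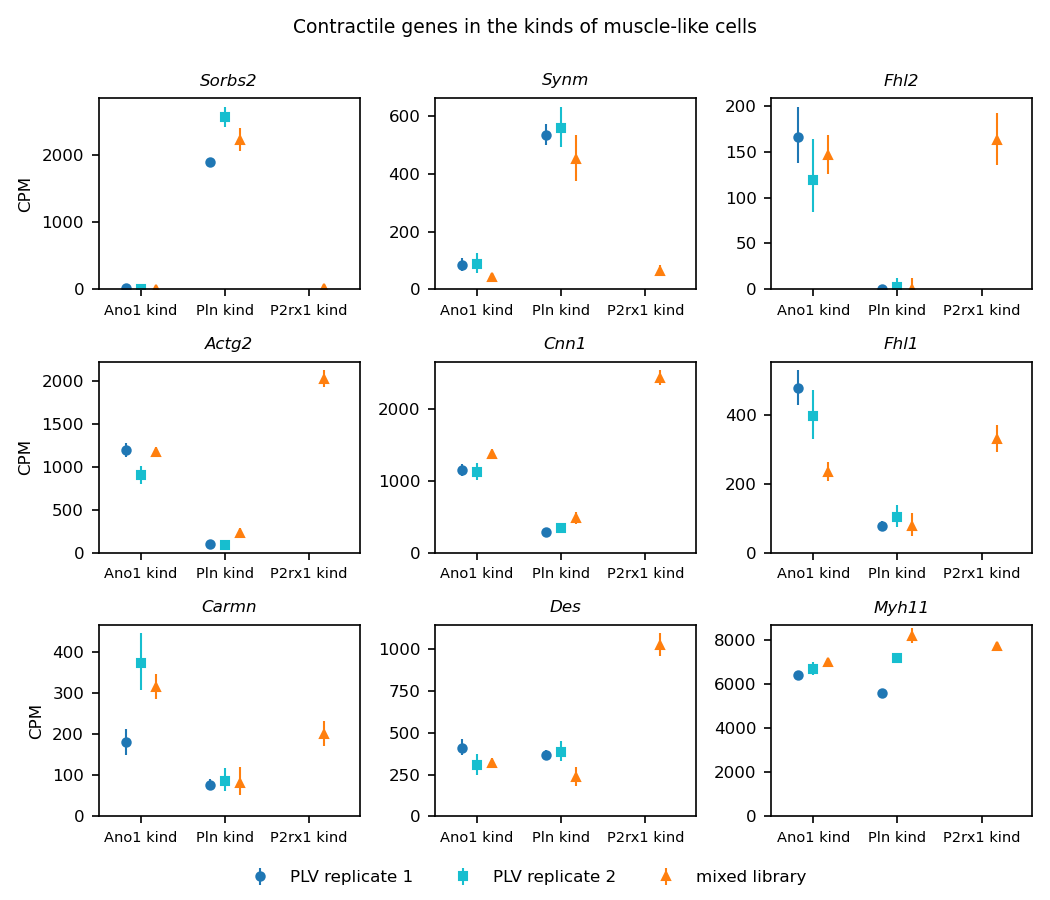
CPM of 9 of the genes in the Ano1, Pln and P2rx1 kinds of each library, with 95% counting intervals. Sorbs2 and Synm are high in the Pln kind of all 3 libraries, Fhl2, Actg2, Cnn1, Fhl1 and Carmn are higher in the Ano1 than in the Pln kind, and Myh11 is at 5598 to 8209 CPM in all kinds.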

How the data were processed

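Whole cells of popliteal vessels were profiled with a droplet method that counts the 3′ ends of transcripts, per the labels. The values analysed are raw UMI counts per gene and cell, as deposited by the authors; Cell Ranger, Seurat and GRCm38 are named in the submitters' processing notes, with no version or settings. The hashtag counts deposited by the authors were used in no comparison. The members and all gene lists were chosen with earlier results of these data known.

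Cells with at least 500 UMIs, at least 300 genes and at most 15% mitochondrial UMIs were kept. Scrublet, run per library, marked 12, 3 and 3 barcodes as doublets (0.625, 0.578 and 0.301%), which were removed. Chosen after the data were seen were a limit of 20% haemoglobin UMIs, the setting aside of keratinocyte-like (5, 0 and 0) and mast cell-like barcodes (23, 5 and 1), and the details of the score that names a cluster. Clusters were found within a library (scanpy 1.11.5, leidenalg 0.10.2, 2000 variable genes, 50 components, 15 neighbours, resolution 1), leaving out the members, the further contractile list, sex-linked, haemoglobin, mitochondrial and tdTomato genes. A cluster was named from marker genes when at least 3 of them were at least 2-fold above the other clusters; clusters far shallower than their library, led more by markers of another class, or best matched by platelets stayed unnamed, and differences from the study may come from these rebuilt names. UMIs were summed per library and class with at least 10 cells.

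The sums were tested with edgeR 4.0.16 (R 4.3.3; TMM, its default filter on low counts, quasi-likelihood, Benjamini-Hochberg over all genes tested). The 6 classes entered 1 fit with the library as a block, the kinds of muscle another, and PLV against mixed a fit without a block. The SE is the log2 difference divided by the square root of the F statistic. Intervals on counts are exact Poisson and, for shares of cells, exact binomial ones at 95%, and cover counting error only; 0 counts are bounded at 3. Alternatives were DESeq2 1.42.0, library totals without TMM, no filter, at least 1000 UMIs, at most 10% mitochondrial UMIs, resolutions of 0.5 and 2, doublets kept, no block, only the 2 classes compared, and leaving out each library. Restricting PLV against mixed to 1 kind was added after the data were seen. In counts simulated with 1 common dispersion, estimated from the same libraries, and known 2- and 4-fold changes, 41.2 and 95.3% were recovered for muscle-like against fibroblast-like cells, 76.7 and 98.9% for the kinds, and 30.3 and 77.9% for PLV against mixed, with 3, 10 and 3 false calls. The assumption that the single mixed library varies like the PLV pair is built into the last and is not tested by it. In these simulations 183 of 9683, 180 of 6789 and 195 of 10629 genes were changed, far fewer than were called in the data. Recovery for genes with a spread wider than the common dispersion was not measured.

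Every member was to be described by role, with its value in each library where it had at least 30 UMIs in muscle-like cells of every library, as 37 of the 38 did. The pools are labelled as separate replicates, so the spread behind the p-values is that between libraries of pooled mice. The quasi-likelihood fit moderates this spread over all genes, so a p-value does not rest on the spread of its own gene alone. Intervals were computed with scipy 1.17.1, and promoters and positions were read with python 3.11.15 from the RefSeq and GENCODE tables.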

Additional observations from a re-analysis of the deposited data

Results flagged for a closer look

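Filamin A and talin, which couple actin to membrane and integrins, had the Ano1 kind above the Pln kind in both PLV libraries and below it in the mixed library. For Flna the log2 ratios of the Ano1 over the Pln kind of CPM, scaled to library totals, were 0.134 in PLV replicate 1, 0.0903 in PLV replicate 2 and -0.0951 in the mixed library. For Tln1 they were 0.175, 0.103 and -0.0493. All 6 ratios are small, and their signs depend on the scaling: library totals in place of TMM moved the median of all genes by 0.17 in this comparison. Over the 3 libraries the difference was -0.12 for Flna and -0.08 for Tln1 with TMM, and 0.06 and 0.09 with library totals. Neither gene was called under either scaling in edgeR's fit, and the difference between PLV and mixed was not tested.

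In the mixed library, 893231 droplets held fewer than 50 UMIs each and 1000645 UMIs in all, a signal in barcodes outside the comparisons. Acta2 was at 2841 CPM there and Myl6 at 2148 CPM, and 37 of the 38 members lay above 3 counts. The 38 genes together took 1.85% of these UMIs, beside 0.26% in immune-like and 8.55% in muscle-like cells of that library; the part of such free RNA in the low values of other classes was not tested. No group held enough libraries to test for an outlying one.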

How the results depend on the processing

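Of the 38 members, the number called ranged over the alternatives from 36 to 37 against fibroblast-like cells, 36 to 38 against blood endothelial-like, 33 to 37 against Schwann-like and 16 to 30 against pericyte-like cells, and was 36 in each against lymphatic endothelial-like cells. It ranged from 24 to 34 for pericyte-like against fibroblast-like cells and from 10 to 26 between the kinds. Without the replicate block, the library, 10 members were called between the Ano1 and Pln kinds, beside 22 with it, and over all comparisons with a block 19 calls of members were lost without it. No paired analysis was possible because, for PLV against mixed, the mixed group is a single library; there the count ranged from 1 to 9. Among Ano1-kind cells alone 1 member was called and among Pln-kind cells alone 1, beside 8 in whole classes; of all genes tested 5.49 and 3.09% were called there. Des (0.44) and Sorbs2 (-0.24) changed sign among Pln-kind cells; the cause was not tested. With a single PLV library there is no test between PLV and mixed.

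Over all genes the calls against pericyte-like cells fell from 1254 to 676 at resolution 0.5 and to 694 and 521 without PLV replicate 1 and 2. Pericyte-like against fibroblast-like calls fell from 2482 to 1570 at resolution 0.5, and muscle-like against Schwann-like calls from 3597 to 2037 without PLV replicate 1. Between the kinds 2371 genes were called, 1331 with DESeq2, 1475 without PLV replicate 1 and 1521 without the block. Between PLV and mixed 1836 were called, 205 with DESeq2, and 481 and 202 within the Ano1 and the Pln kind. Sums of few cells limit the precision, among them pericyte-like cells (26 to 59 cells), Schwann-like cells of the mixed library (38) and its Pln-kind cells (41), and so does the single mixed library in PLV against mixed.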

Other observations

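The further contractile list of 44 genes gave values in the comparisons that the text has not described. Against blood endothelial-like cells 24 of the 41 tested were higher in muscle-like cells, 10 were lower and 7 were not called, where 20.4% of all genes tested were higher and 19.8% lower. Against lymphatic endothelial-like cells the counts were also 24, 10 and 7, beside 21.7 and 20.6% of all genes. Against Schwann-like cells 27 were higher and 3 lower, beside 19.0 and 15.3% of all genes. Between pericyte-like and fibroblast-like cells 21 were higher, 5 were lower and 15 were not called, beside 9.64 and 14.0%. Between the Ano1 and Pln kinds 11 of 39 tested were higher, 11 were lower and 17 were not called, beside 16.0 and 17.1%. Between PLV and mixed 2 of 40 were higher in PLV and 7 lower, beside 8.12 and 8.74%.

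A few cells carried much of a member in single groups. Of the 11 Sorbs2 UMIs of the Ano1 kind in PLV replicate 1, 3 cells held 81.8%, and all 4 of the mixed library came from 2 cells. In the Pln kind, by contrast, the 3 cells with most held 4.32% of 3100 Sorbs2 UMIs in PLV replicate 1, and the median cell there was at 1582 CPM. In the P2rx1 kind the median cell had 18735 CPM of Acta2, with a range from 11680 to 24796 between the 10th and the 90th percentile, so its high level was spread over its 74 cells.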
